A study of Mus musculus with 22 samples.

Results

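The genes described here are 46 genes of endothelial identity and angiogenesis, taken by symbol from the 21898 named genes of the expression table of mouse hearts. They comprise 25 pan-endothelial genes, 5 capillary genes, 8 arterial and Notch genes, 4 venous and lymphatic genes and 4 growth factors, and all 46 had enough counts to be tested. The hearts came from male mice, 6 weeks old when divided into groups, of a strain that the sources used here do not name. They were removed after the stress procedure. The control group (n = 3) received no stress, and the case group (n = 4, labelled stress) received chronic psychological stress for 21 days. The treatment group (n = 4) received the same stress with JWH133, an agonist of the cannabinoid receptor CB2R. JWH133 was injected intraperitoneally at 10 mg/kg, 2 times per day for 21 days, and behaviour was tested 24 h after the stress. The treatment group carried both the stress and the agonist, and no group received JWH133 without stress, so that the agonist in unstressed hearts was not measured. The methods describe no vehicle injections for the other groups, so that agonist and injections cannot be told apart. Total RNA of each heart was sequenced, and each value belongs to whole cardiac tissue.

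Endothelial cells line all vessels of the heart, where capillary endothelium makes up most of the lining. Vegfa, made largely by cardiomyocytes, acts on the endothelial receptors Kdr, which carries most of the growth signal, and Flt1, which binds the ligand strongly and signals weakly, with Nrp1 and Nrp2 as co-receptors. Notch signalling marks arterial endothelium, Prox1 and Flt4 mark lymphatic endothelium, and ETS factors such as Erg and Fli1 bind the regulatory sequence of many endothelial genes.

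The proximal promoters of the VEGF ligand and receptors that the results turn on are shown first. Of the 46 genes, 28 had a promoter in the RefSeq table (35 windows on GRCm38.p6, each from 250 bases before to 50 bases after a transcription start). The letters CAGGAA and CCGGAA, cores to which ETS factors bind, are in capitals on either strand (TTCCTG and TTCCGG when read on the other strand). The Kdr window (chr5:75978406-75978705, minus strand) had 1 match starting at -153, the Flt1 window (chr5:147725962-147726261, minus strand) had 0, the Nrp2 window (chr1:62703067-62703366, plus strand) had 1 at -41 and the Vegfa window of the upstream start (chr17:46032328-46032627, minus strand) had 1 at -210.
Kdr: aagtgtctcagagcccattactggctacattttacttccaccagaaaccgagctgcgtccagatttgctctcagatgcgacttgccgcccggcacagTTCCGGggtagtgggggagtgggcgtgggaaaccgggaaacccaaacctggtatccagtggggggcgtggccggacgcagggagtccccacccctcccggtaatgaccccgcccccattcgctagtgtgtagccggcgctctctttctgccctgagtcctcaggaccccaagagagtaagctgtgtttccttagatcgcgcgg
Flt1: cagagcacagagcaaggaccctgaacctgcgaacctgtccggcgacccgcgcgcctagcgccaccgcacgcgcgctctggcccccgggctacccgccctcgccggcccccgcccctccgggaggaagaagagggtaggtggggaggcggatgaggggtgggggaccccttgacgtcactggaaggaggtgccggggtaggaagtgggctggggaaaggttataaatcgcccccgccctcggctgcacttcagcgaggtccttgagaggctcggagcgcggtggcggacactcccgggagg
Nrp2: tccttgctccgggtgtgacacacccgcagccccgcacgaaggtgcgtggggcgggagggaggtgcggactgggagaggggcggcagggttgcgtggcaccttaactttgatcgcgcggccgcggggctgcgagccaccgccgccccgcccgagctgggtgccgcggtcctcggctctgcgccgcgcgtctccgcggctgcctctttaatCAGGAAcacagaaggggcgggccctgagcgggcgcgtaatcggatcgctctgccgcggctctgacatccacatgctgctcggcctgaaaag
Vegfa: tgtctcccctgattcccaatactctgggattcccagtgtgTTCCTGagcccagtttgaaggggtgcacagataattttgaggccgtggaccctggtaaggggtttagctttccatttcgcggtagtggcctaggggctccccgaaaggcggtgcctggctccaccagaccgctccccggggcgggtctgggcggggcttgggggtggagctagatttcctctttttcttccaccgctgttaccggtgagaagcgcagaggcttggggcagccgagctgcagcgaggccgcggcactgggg
Of the 35 windows, 17 (48.6%) held CAGGAA or CCGGAA, against 41.4% of 32851 promoter windows of the same length. CAGGAA alone was present in 45.7% of the windows against 30.6% of all, and CCGGAA in 2.86% against 14.9%. ACGTG, the core bound by hypoxia-inducible factors, was present in 8.57% against 19.6%, GTGGGAA, bound by the Notch effector RBPJ, in 5.71% against 6.38%, and AACAAT, bound by SOX factors, in 11.4% against 10.7%. These are counts of letters and were not tested as binding sites.

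Total counts per library ranged from 29410822 to 34412849, and 15407 to 15767 genes had a count. Cardiomyocyte markers summed to 18375 to 23802 FPKM (fragments per kilobase of gene length and 1e6 counts of the library), whereas the 46 genes summed to 851 to 1016 FPKM. In the first principal component of all genes (42.7% of the variance), the coordinates of the first case libraries were 60.7 (a), 64.6 (b) and 29.7 (c), and that of case library d was -9.81, just beyond the treatment range of -22.7 to -9.94. The chi-square per degree of freedom between libraries of a group was 7.48 to 14.8 in control, 32.0 to 137 in case and 19.0 to 37.5 in treatment, so that no library was a copy of another. Since case library d stood apart, results are also given without it. It was singled out from these same data, and no reason to exclude it is known. Values without it are therefore no separate support for a change.

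Among the 46 genes, case libraries a, b and c did not overlap the control libraries in 25 genes (54.3%), against 44.0% of all genes tested. In 20 of these 25 genes (80.0%) case library d lay nearer the control mean than the mean of the other case libraries, against 66.1% of all genes of this kind. The heat map of the 46 genes shows this column as paler than its neighbours.

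**Figure D1:**
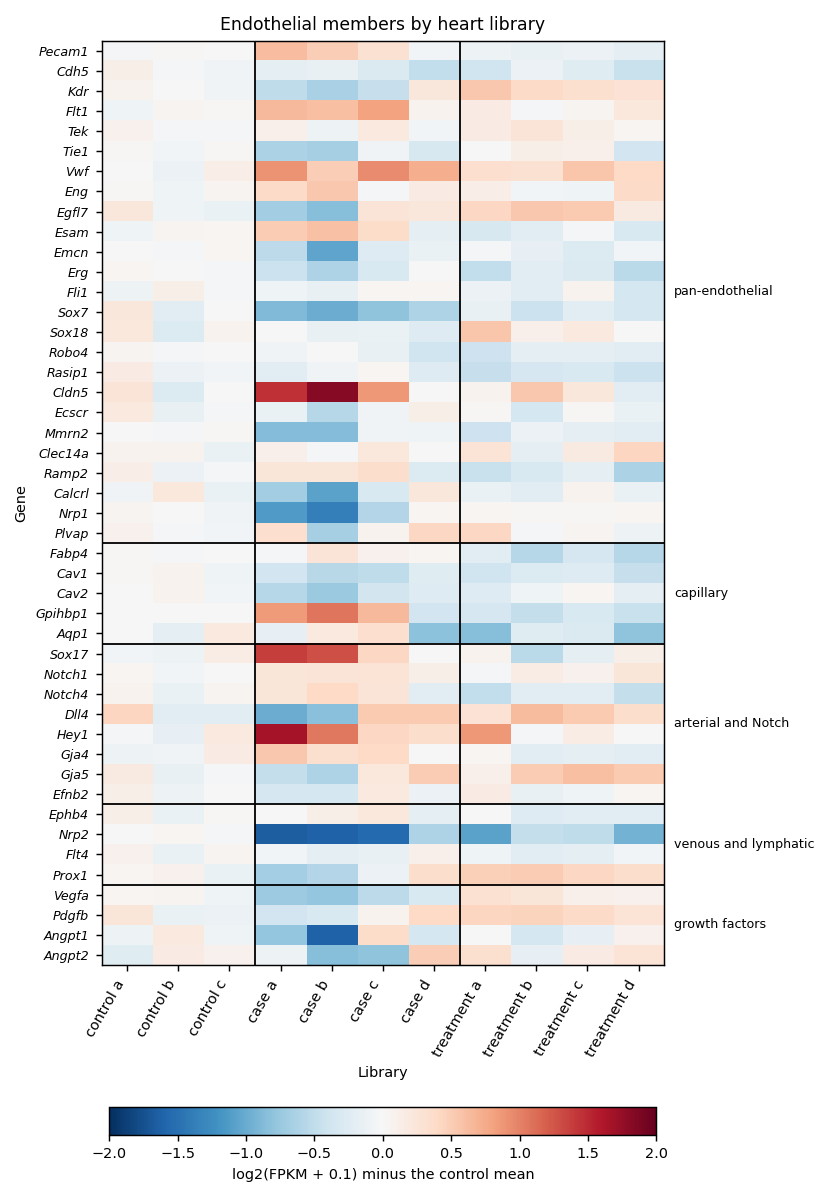
Each row is a gene and each column a heart library. Colour gives log2(FPKM + 0.1) minus the control mean, from -2 (blue) to 2 (red), with horizontal lines between the gene classes. Case libraries a to c show the strongest colours, and case library d stands nearer the control libraries in 20 of the 25 genes in which the other case libraries were separate from control.

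In the comparison of case against control, 9 of the 46 genes (19.6%) passed an adjusted p of 0.05 in edgeR's quasi-likelihood test, against 15.8% of the 14050 genes tested. Flt1, Vwf and Cldn5 rose, and Vegfa, Nrp2, Sox7, Cav1, Cav2 and Emcn fell. The share that rose among all genes was 8.21% and the share that fell was 7.55%. The median log2 difference of the 46 genes was -0.07, beside 0.01 for all genes. At an unadjusted p under 0.05 there were 19 of the 46 genes, against 31.8% of all genes. FPKM did not overlap between case and control in 13 of the 46 genes, and in 25% of all genes tested. Without case library d, 25 of the 46 genes (12 higher, 13 lower) passed, against 32% of all genes. In whole hearts, fewer cells of a type and less RNA per cell cannot be told apart.

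In the comparison of treatment against case, 14 of the 46 genes (30.4%) passed, against 10.9% of all genes tested. Vegfa, Kdr, Sox7, Cav2 and Prox1 rose, and Pecam1, Vwf, Esam, Ramp2, Fabp4, Gpihbp1, Sox17, Notch4 and Gja4 fell. The shares of all genes that rose and fell were 4.33% and 6.57%. The median log2 difference was 0.00 for the 46 genes and 0.01 for all genes. At an unadjusted p under 0.05 there were 28 of the 46 genes, against 30.5% of all genes, and FPKM did not overlap in 7 of the 46 genes, and in 14.3% of all genes tested. Without case library d, 29 genes passed (13 higher, 16 lower), against 31.4% of all genes. Both comparisons use the same 4 case libraries, so that their values are given side by side and are not independent. The count fell to 2 genes (4.35%) without case library a, against 2.68% of all genes. It also fell to 2 (Vegfa and Sox7) when only treatment and case entered the fit, against 1.97% of all genes.

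In the comparison of treatment against control, 0 of the 46 genes passed in edgeR, against 1.08% of all genes. At an unadjusted p under 0.05 there were 15 of the 46 genes, against 11.3% of all genes. FPKM did not overlap in 19 of the 46 genes, and in 19.3% of all genes tested, and the median log2 difference was -0.13, beside 0.01 for all genes. DESeq2 called 5 genes (10.9%, all lower), against 2.88% of all genes, and limma on FPKM called 0, against 1.25% to 1.43%. The edgeR fit of the 2 groups alone called 12 (26.1%, 3 higher, 9 lower), against 5.92% of all genes. Without case library d, which shares only the estimate of spread with this comparison, Kdr rose and Erg, Rasip1, Cav1 and Nrp2 fell, against 2.48% of all genes called.

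**Figure D2:**
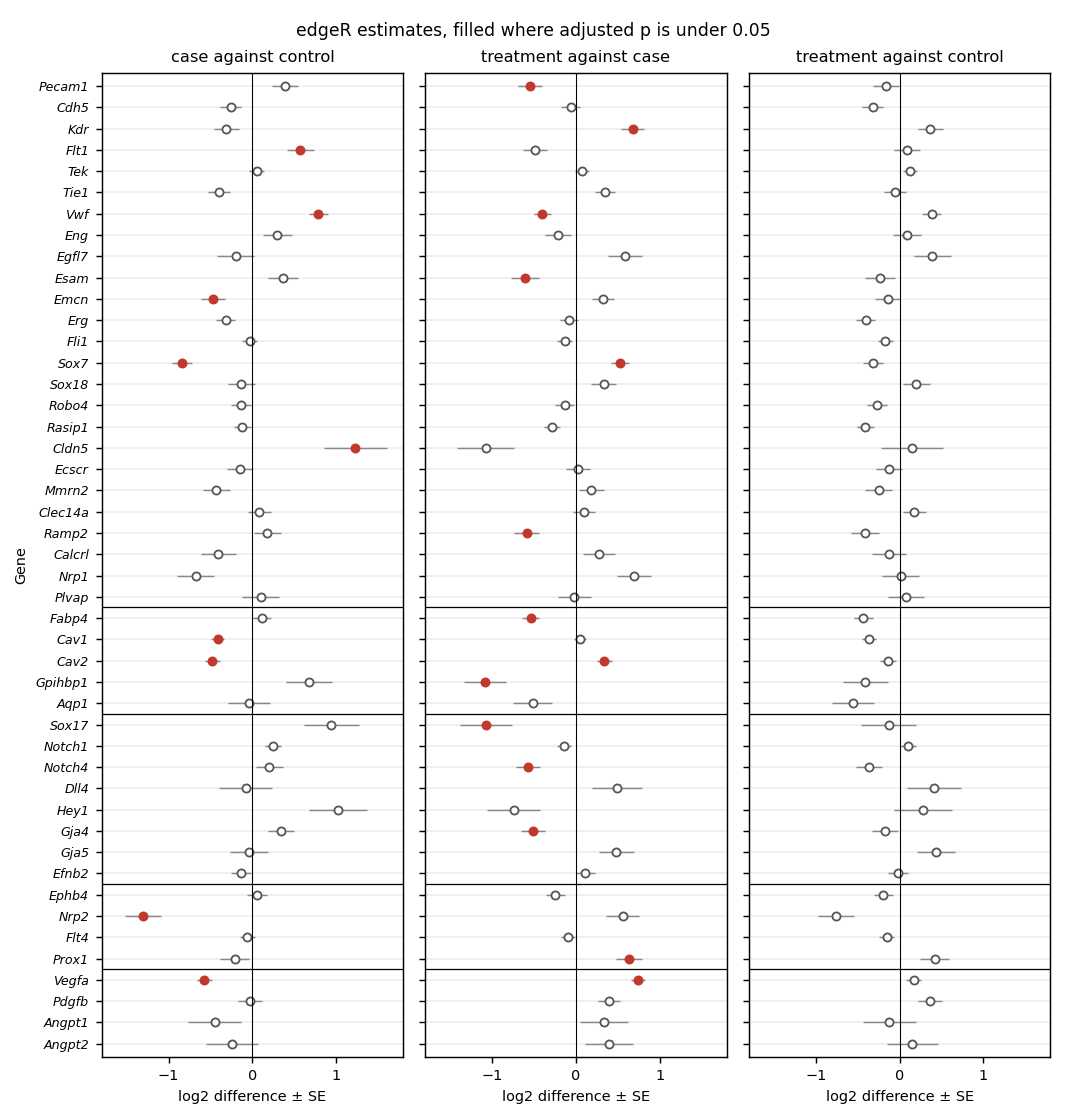
Points are log2 differences from edgeR with their SE as bars, for the 46 genes in each comparison, and filled points passed an adjusted p of 0.05. There are 9 filled points for case against control, 14 for treatment against case and 0 for treatment against control.

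Among the growth factors, Vegfa was lower in stressed hearts and higher in stressed hearts with JWH133. Vegfa (chr17:46016993-46032369, minus strand, GRCm38 as are all gene positions here) was measured at 57.6, 57.9 and 52.4 FPKM in control libraries a to c, at 33.7, 32.6, 39.0 and 45.1 in case libraries a to d, and at 69.0, 66.2, 59.9 and 59.4 in treatment libraries a to d. All case libraries were below all control libraries, and all treatment libraries were above both groups. Means were 56.0 ± 3.08 (SD, n = 3), 37.6 ± 5.71 (SD, n = 4) and 63.6 ± 4.73 FPKM (SD, n = 4). Vegfa fell by 0.57 (log2, SE 0.0898) in case against control (edgeR adjusted p = 0.00277) and was 0.74 higher (SE 0.0841) in treatment against case (adjusted p = 0.0034). Both calls held in every fit that left out a library and under each of 7 other settings. Treatment against control was not called (0.17, adjusted p = 0.536), although the FPKM of those groups did not overlap.

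Pdgfb, the endothelial ligand that recruits pericytes, was at 13.3, 10.2 and 10.2 FPKM in control, 8.56, 9.05, 11.7 and 14.7 in case, and 15.0, 15.3, 14.5 and 13.5 in treatment. The case libraries spanned the control range, and the treatment libraries lay above control but overlapped case library d. The log2 differences were -0.03 (adjusted p = 0.899) for case against control and 0.39 (adjusted p = 0.0729) for treatment against case. Angpt1, the ligand that activates the receptor Tek, was at 8.78, 10.8 and 8.89 FPKM in control, 5.47, 3.01, 12.2 and 7.41 in case, and 9.49, 7.36, 8.45 and 10.0 in treatment, with log2 differences of -0.45 (SE 0.311) and 0.33 (SE 0.29) in those comparisons. The case group held both the lowest and the highest library, and no call was made, except for case against control without case library c (-0.84, adjusted p = 0.0388). Angpt2, which opposes Angpt1 at Tek in many settings, was at 0.889, 1.21 and 1.14 FPKM in control, 0.996, 0.551, 0.574 and 1.55 in case, and 1.37, 0.949, 1.22 and 1.31 in treatment. It rested on as few as 63 counts in a library, its groups overlapped and its log2 differences were -0.24 (SE 0.307) and 0.39 (SE 0.284).

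All 4 growth factors had lower estimates in case than in control (median -0.35) and higher estimates in treatment than in case (median 0.39), of which only Vegfa passed. The shares of all genes called in these comparisons were 15.8% and 10.9%. Without case library d, 3 of the 4 rose in treatment against case (median 0.62), against 31.4% of all genes called. They were Vegfa, Pdgfb (0.52, edgeR adjusted p = 0.0044) and Angpt2 (0.71, adjusted p = 0.0423). Vegfa alone fell in case against control in that fit (median of the 4 genes -0.51), against 32% of all genes called. The log2 ratio of Angpt2 to Angpt1 lay between -3.17 and -2.86 in control, between -4.19 and -2.19 in case and between -2.84 and -2.70 in treatment. All treatment libraries were above all control libraries (difference 0.26), and the exact two-sided permutation test gave p = 0.0286, the smallest that groups of 3 and 4 allow, and 0.0857 after adjustment over 3 comparisons. The differences of case against control (0.28, exact permutation p = 0.686) and of treatment against case (-0.02, exact permutation p = 1) did not pass. Without case library c, the difference of treatment against case was -0.51.

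The Vegf receptors and co-receptors moved in different directions. Kdr (chr5:75932827-75978458, minus strand) was at 37.2, 35.9 and 33.8 FPKM in control, 25, 22.8, 25.9 and 41.5 in case, and 51.9, 46.2, 44.4 and 43.6 in treatment. Case libraries a to c were below control, case library d was above it, and all treatment libraries were above all others. Kdr was 0.68 higher (log2, SE 0.137) in treatment against case (edgeR adjusted p = 0.0158), a call that was lost without case library a (adjusted p = 0.0517) and when only the 2 groups entered the fit (adjusted p = 0.057). Case against control was not called (-0.31, adjusted p = 0.165), and without case library d it was (-0.50, adjusted p = 0.000878).

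Flt1 (chr5:147561604-147726011, minus strand) was at 15.8, 17.4 and 17.0 FPKM in control, 26.3, 25.4, 29.1 and 17.6 in case, and 18.7, 16.4, 17.4 and 19.4 in treatment. The 3 case libraries a to c were above all other libraries, and case library d lay close to the highest control library. Flt1 rose by 0.57 (log2, SE 0.16) in case against control (edgeR adjusted p = 0.0328), and the call was lost without any 1 of the control libraries or of case libraries a to c (adjusted p up to 0.117), and when only the 2 groups entered the fit (adjusted p = 0.0897). Treatment against case gave -0.49 (adjusted p = 0.0522), and -0.64 (adjusted p = 0.000148) without case library d. Counts of a gene do not separate the soluble from the membrane form of Flt1.

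Nrp2 (chr1:62703285-62818695, plus strand), a co-receptor in venous and lymphatic endothelium, was at 13.8, 14.2 and 13.3 FPKM in control, 4.33, 4.42, 4.59 and 8.95 in case, and 6.49, 9.81, 9.64 and 7.11 in treatment. All case and all treatment libraries were below all control libraries, and case library d fell within the treatment range. Nrp2 fell by 1.31 (log2, SE 0.215), to 0.403 of control (edgeR adjusted p = 0.00335), the largest fall among the 46 genes in that comparison. The treatment value was 0.56 above case (adjusted p = 0.0878) and 0.75 below control (-0.75, adjusted p = 0.15), neither of which passed. Both passed without case library d (0.83, adjusted p = 0.000682, and -0.75, adjusted p = 0.00951).

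Nrp1, the co-receptor of arterial and capillary endothelium, was at 33.0, 31.8 and 30.3 FPKM in control, 14.4, 12.2, 21.1 and 32.5 in case, and 32.6, 32.2, 32.0 and 32.6 in treatment. The lowest of the series were case libraries a to c, and case library d lay among the control and treatment libraries. The log2 differences of -0.68 for case against control (edgeR adjusted p = 0.055) and 0.69 for treatment against case (adjusted p = 0.0503) did not pass, and without case library d they were -0.96 (adjusted p = 0.000247) and 0.98 (adjusted p = 0.000205). Flt4, the receptor of lymphatic growth factors, was at 4.27 to 5.36 FPKM in all libraries and was not called in any comparison.

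**Figure D3:**
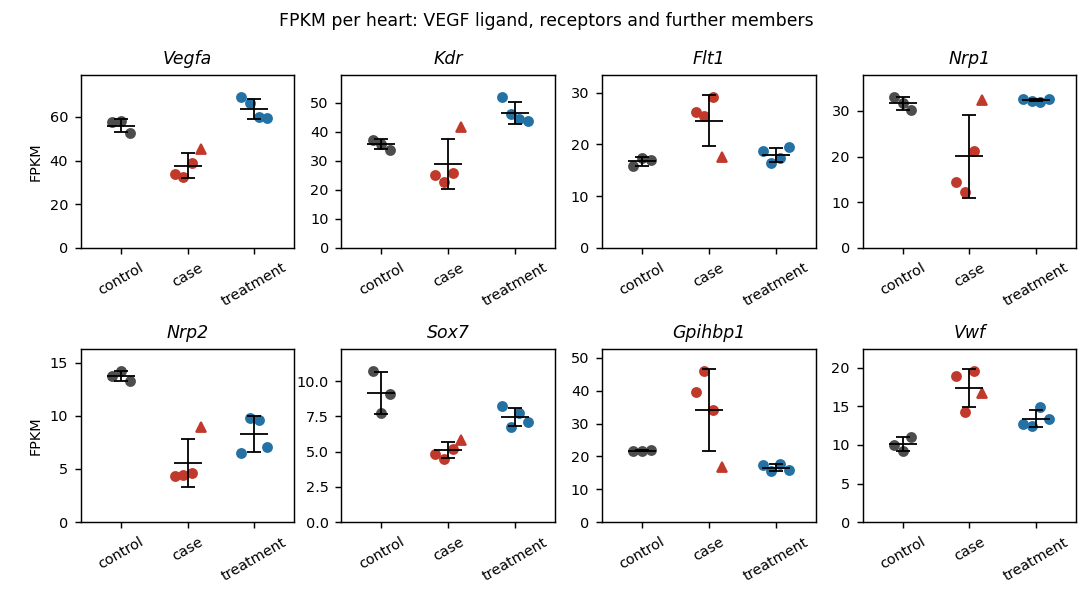
FPKM of each heart for the VEGF ligand, its receptors and co-receptors, and for Sox7, Gpihbp1 and Vwf. Points are libraries (the triangle is case library d) and bars are the mean ± SD of each group. Vegfa is lowest in case and highest in treatment, whereas Flt1 reaches 29.1 FPKM in case library c and stays at or below 19.4 in the other groups.

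Of the 25 pan-endothelial genes, 3 rose and 2 fell in case against control, with a median of -0.13, and 2 rose and 4 fell in treatment against case, with a median of -0.02. In each of these comparisons 6 rose and 8 fell without case library d (medians -0.05 and 0.02). The shares of all genes called in the 2 comparisons were 15.8% and 10.9%, and 32% and 31.4% without case library d. The class summed to 453 to 478 FPKM in control, 445 to 470 in case and 437 to 463 in treatment, so that its total differed little while single genes moved in both directions. Sox7 (chr14:63943673-63950732, plus strand), a SOXF transcription factor of endothelium, was at 10.7, 7.71 and 9.06 FPKM in control, 4.86, 4.5, 5.15 and 5.86 in case, and 8.22, 6.72, 7.73 and 7.13 in treatment. Every case library was below every library of the other groups. Sox7 fell by 0.84 (log2, SE 0.117) in case against control (edgeR adjusted p = 0.00146), in every fit that left out a library. It was 0.53 higher (SE 0.11) in treatment against case (adjusted p = 0.0178), lost without case library a or treatment library a (adjusted p up to 0.0525). Its paralog Sox18 was at 6.46 to 11.5 FPKM and was not called.

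Vwf (chr6:125546774-125686679, plus strand), the adhesive protein that endothelium stores and that megakaryocytes also make, was at 10.0, 9.25 and 11.1 FPKM in control, 19.0, 14.2, 19.5 and 16.8 in case, and 12.7, 12.5, 14.9 and 13.3 in treatment. All case and treatment libraries were above all control libraries, and case library d lay with the rest of its group. Vwf rose by 0.79 (log2, SE 0.112) in case against control (edgeR adjusted p = 0.00167) and held in every fit that left out a library. It fell by 0.40 (log2, SE 0.102) in treatment against case (adjusted p = 0.0326), a call lost without control library a, case libraries a or c, or treatment libraries a, b or d (adjusted p up to 0.098). The 6 platelet markers summed to 12.3 to 15.3 FPKM in control, 5.34 to 19.4 in case and 18.6 to 74.3 in treatment. Of 5 tested, 0 passed in case against control, 4 rose in treatment against case, where Vwf fell, and 3 rose in treatment against control (median 3.89), where Vwf was 0.38 higher (adjusted p = 0.158) and all treatment libraries lay above control. The part of platelets in the Vwf values was not tested.

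Cldn5 (chr16:18776847-18778262, plus strand), the tight junction claudin of endothelium, was at 7.93, 5.51 and 6.71 FPKM in control, 18.5, 23.6, 12.2 and 6.62 in case, and 6.98, 9.75, 7.83 and 5.70 in treatment. Case libraries a to c were above all others, and case library d lay inside the control range. Cldn5 rose by 1.23 (log2, SE 0.376) in case against control (edgeR adjusted p = 0.0463). This call was lost without any 1 of the control, treatment or case a and b libraries (adjusted p up to 0.154) and under 3 of 7 other settings (adjusted p up to 0.108), and the -1.08 of treatment against case did not pass (adjusted p = 0.0601).

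Emcn (chr3:137341067-137432185, plus strand), a sialomucin of venous and capillary endothelium, was at 10.9, 10.8 and 11.3 FPKM in control, 7.59, 5.24, 9.14 and 10.0 in case, and 10.8, 9.81, 9.12 and 10.6 in treatment. All case libraries were below control, and they overlapped treatment. The fall of -0.47 (log2, SE 0.144) in case against control (edgeR adjusted p = 0.0471) was lost in every fit without a library except that without case library d (adjusted p 0.00966 to 0.137), and under 5 of 7 other settings (adjusted p up to 0.113).

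Pecam1, Esam and Ramp2 also fell in treatment against case. Pecam1 (CD31, an adhesion molecule of the junction) was at 38.5, 39.8 and 39.0 FPKM in control, 60.4, 55.2, 48.5 and 37.5 in case, and 36.5, 35.4, 36.0 and 34.2 in treatment. The highest were case libraries a to c and the lowest were the treatment libraries. Pecam1 fell by 0.55 (log2, SE 0.144, edgeR adjusted p = 0.0363). The call held only without case library c or d, and rose to an adjusted p of 0.105 otherwise.

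Esam, another junction adhesion molecule, was at 24.9, 27.6 and 27.4 FPKM in control, 37.7, 40.1, 34.4 and 23.2 in case, and 21.3, 22.7, 26.0 and 21.6 in treatment. Ramp2, the partner of the receptor Calcrl for adrenomedullin, was at 9.94, 8.38 and 8.91 FPKM in control, 10.8, 10.8, 11.6 and 7.44 in case, and 6.65, 7.29, 7.94 and 5.79 in treatment. In both genes case libraries a to c were above all others and case library d lay within the treatment range. Esam fell by 0.60 (log2, SE 0.166, edgeR adjusted p = 0.0405) and Ramp2 by 0.59 (SE 0.153, adjusted p = 0.0346), and in both the call held in only 1 of 11 fits without a library, that without case library d (adjusted p up to 0.116 for Esam and 0.0981 for Ramp2). Ramp2 overlaps another gene of the table on its own strand.

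The 20 pan-endothelial genes that did not pass in case against control ranged from -0.68 (Nrp1) to 0.39 (Pecam1), with Mmrn2, a matrix protein of endothelium, next in size (-0.43, adjusted p = 0.0884). Of the 19 that did not pass in treatment against case, Cldn5 and Nrp1 had the largest differences. Cdh5 (VE-cadherin, the endothelial adherens junction) was at 58.5 to 66.8 FPKM in control, 43.9 to 55.7 in case and 45.0 to 56.6 in treatment and was not called. Its FPKM, scaled by total counts alone, did not overlap between control and either group. The ETS factors Erg and Fli1 were also not called. In treatment against control the class ranged from -0.41 (Ramp2, with Rasip1 next at -0.41) to 0.39 (Egfl7).

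Of the 5 capillary genes, 0 rose and 2 fell in case against control, and 1 rose and 2 fell in treatment against case, against 15.8% and 10.9% of all genes called. These counts were 1 and 2, and 1 and 3, without case library d, against 32% and 31.4% of all genes called. Cav1 (chr6:17306335-17341452, plus strand), the coat protein of caveolae, was at 101, 104 and 93.5 FPKM in control, 76.0, 67.8, 69.8 and 84.1 in case, and 75.3, 82.1, 83.0 and 72.5 in treatment. Its partner Cav2 (chr6:17281185-17289115, plus strand) was at 13.5, 14.2 and 13.1 FPKM in control, 9.14, 8.09, 10.5 and 11.3 in case, and 11.3, 12.8, 14.0 and 12.0 in treatment. In both genes all case libraries were below all control libraries, and the treatment libraries of Cav1 alone stayed below control. Cav1 fell by 0.41 (log2, SE 0.0814, edgeR adjusted p = 0.0081) and Cav2 by 0.48 (SE 0.0928, adjusted p = 0.0079) in case against control, with and without each library. Cav2 rose by 0.34 (SE 0.0866, adjusted p = 0.033) in treatment against case, which held in 4 of 11 fits without a library (adjusted p up to 0.0886), and Cav1 did not pass there (0.05, adjusted p = 0.712).

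Gpihbp1 (chr15:75596628-75599481, plus strand), which carries lipoprotein lipase across capillary endothelium, was at 21.6, 21.8 and 22.0 FPKM in control, 39.6, 45.9, 34.2 and 16.7 in case, and 17.3, 15.7, 17.6 and 15.9 in treatment. Control was exceeded by case libraries a to c, and case library d was below it, among the treatment libraries. In treatment against case Gpihbp1 fell by 1.09 (log2, SE 0.252, edgeR adjusted p = 0.0245), the largest fall among the 46 genes, lost without case library a or b or any treatment library (adjusted p up to 0.0723). Case against control gave 0.68 (adjusted p = 0.111), and 0.92 (adjusted p = 0.000184) without case library d.

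Fabp4 (chr3:10204088-10208576, minus strand), a fatty acid binding protein of capillary endothelium and of adipocytes, was at 61.2, 59.8 and 60.6 FPKM in control, 59.7, 72.4, 64.4 and 62.0 in case, and 51.5, 40.8, 48.2 and 40.9 in treatment. All treatment libraries were below all others. Fabp4 fell by 0.54 (log2, SE 0.106) in treatment against case (edgeR adjusted p = 0.0144), a call that held without each library and was lost when only the 2 groups entered the fit (adjusted p = 0.0554). The 6 adipocyte markers summed to 0.340 to 3.57 FPKM in each library, and 0 of 4 tested passed in any comparison. Aqp1, the water channel of capillary endothelium and erythrocytes, was not called (-0.04 and -0.52 in the same comparisons). The 7 erythroid markers summed to 222 to 265 FPKM in control, 608 to 1067 in case and 796 to 1715 in treatment, with 6 risen in case against control and 5 in treatment against control, and their part in Aqp1 was not tested.

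All 5 capillary genes had lower estimates in treatment than in control (median -0.41), but none passed. FPKM did not overlap in 4 of them, and in 19.3% of all genes tested. Aqp1 (-0.55) and Fabp4 (-0.43) had the largest differences. The class summed to 319 to 344 FPKM in control, 251 to 351 in case and 219 to 274 in treatment, with case library d at 251.

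**Figure D4:**
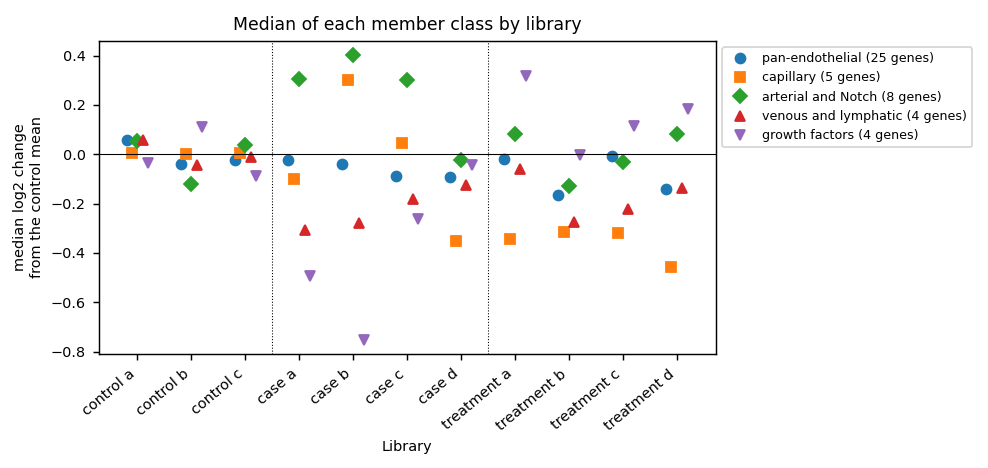
Each point is the median over the genes of a class of the log2 change from the control mean, by heart library. The arterial and Notch class lies at 0.30 to 0.40 in case libraries a to c and at -0.02 in case library d, and the growth factors lie at -0.75 to -0.26 in the same case libraries.

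Of the 8 arterial and Notch genes, 0 passed in case against control, with a median of 0.22, against 15.8% of all genes. In treatment against case 0 rose and 3 fell, with a median of -0.33, against 10.9% of all genes called. Without case library d, 5 rose in case against control (Sox17, Notch1, Notch4, Hey1 and Gja4), against 32% of all genes called. In that fit 1 rose and 4 fell in treatment against case, against 31.4% of all genes called. Sox17 (chr1:4490931-4497354, minus strand), a SOXF factor of arterial endothelium, was at 2.66, 2.57 and 3.06 FPKM in control, 7.35, 6.89, 3.72 and 2.75 in case, and 2.89, 1.87, 2.43 and 3.02 in treatment. Above all others were case libraries a to c, and case library d lay inside the control range. In treatment against case Sox17 fell by 1.08 (log2, SE 0.306, edgeR adjusted p = 0.0449), a call that held only without case library c or d (adjusted p up to 0.134 otherwise), and case against control did not pass (0.94, adjusted p = 0.075).

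Notch4 (chr17:34564268-34588503, plus strand), the Notch receptor largely of endothelium, was at 11.7, 10.1 and 11.6 FPKM in control, 13.2, 14.6, 13.3 and 9.50 in case, and 7.85, 9.50, 9.58 and 7.98 in treatment. Gja4, the arterial gap junction protein connexin 37, was at 7.19, 7.41 and 8.71 FPKM in control, 11.2, 9.74, 10.2 and 7.76 in case, and 7.96, 6.64, 6.73 and 6.61 in treatment. In both genes case libraries a to c were above all other libraries, and case library d lay within the treatment range. In treatment against case Notch4 fell by 0.57 (log2, SE 0.144, edgeR adjusted p = 0.0317) in 4 of 11 fits without a library, and Gja4 by 0.52 (SE 0.142, adjusted p = 0.0405) in 1 of 11, that without case library d (adjusted p up to 0.0882 and 0.121).

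Hey1, a transcriptional target of Notch, was at 2.6, 2.36 and 3.06 FPKM in control, 8.59, 5.65, 3.58 and 3.43 in case, and 4.95, 2.6, 2.94 and 2.65 in treatment. All case libraries were above control, with a wide spread in case. Its log2 differences of 1.03 (SE 0.348, adjusted p = 0.065) and -0.74 (SE 0.315, adjusted p = 0.135) did not pass. Dll4, the Notch ligand of arterial endothelium, was at 6.63 to 10.4 FPKM in control, 3.82 to 11.1 in case and 9.45 to 12.0 in treatment, and differed by 0.49 (adjusted p = 0.282) in treatment against case. In treatment against control Gja5 (0.44) and Dll4 (0.41) had the largest differences of the class, and none passed.

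Of the 4 venous and lymphatic genes, Nrp2 fell in case against control and Prox1 rose in treatment against case, against 15.8% and 10.9% of all genes called. In fits without case library d, 2 fell in the former, and 2 rose and 1 fell in the latter, against 32% and 31.4% of all genes called. Prox1 (chr1:190118035-190170714, minus strand), the transcription factor of lymphatic endothelium that cardiomyocytes also express, was at 15.7, 16.2 and 13.9 FPKM in control, 9.50, 10.1, 14.0 and 19.6 in case, and 21.3, 21.7, 20.2 and 19.5 in treatment. Case libraries a and b were the lowest, and case library d lay within the treatment range. Prox1 rose by 0.63 (log2, SE 0.159) in treatment against case (edgeR adjusted p = 0.0313), lost without case library a or b or any treatment library (adjusted p up to 0.082). Ephb4, the venous ephrin receptor, was at 25.4 to 35 FPKM and was not called in any comparison of all libraries. Cardiomyocyte markers did not pass in any comparison (0 of 9), with summed levels of 22216 to 23456 FPKM in control, 18375 to 23349 in case and 21442 to 23802 in treatment.

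Genes of neighbouring pathways outside the 46 were described from the same fit. Of all genes tested, 8.21% rose and 7.55% fell in case against control, and 4.33% rose and 6.57% fell in treatment against case. Of 6 other VEGF family ligands and antagonists, 2 rose (Pgf and Vegfd) and 1 fell (Vash1) in case against control, and Pgf and Vegfd fell in treatment against case. Pgf, a ligand of Flt1, was at 2.75, 2.81 and 2.24 FPKM in control, 4.20, 4.42, 3.73 and 3.29 in case, and 2.29, 1.67, 1.76 and 1.81 in treatment. Every case library was above every other library. Pgf rose by 0.61 (log2, edgeR adjusted p = 0.0372), a call lost without control libraries a to c, case libraries a or b, or treatment libraries c or d (adjusted p up to 0.146), and fell by 1.09 in treatment against case (adjusted p = 0.00553) without exception. Vash1, which restrains angiogenesis, was at 16, 13.2 and 15.8 FPKM in control, 4.93, 4.91, 4.73 and 9.32 in case, and 7.26, 9.37, 8.78 and 7.03 in treatment, and the log2 difference of case against control was -1.33 (adjusted p = 0.00185).

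Of 26 other endothelial genes, 4 rose and 4 fell in case against control, and 4 rose and 7 fell in treatment against case (medians -0.01 and -0.01). The peptide Apln, a marker of sprouting tip cells, was at 9.68, 8.96 and 8.64 FPKM in control, 0.640, 1.19, 1.55 and 4.19 in case, and 5.5, 6.29, 5.26 and 4.5 in treatment. Its receptor Aplnr was at 25.8, 21.5 and 18.8 FPKM in control, 0.529, 0.416, 1.75 and 6.90 in case, and 7.90, 15.6, 13.4 and 9.86 in treatment. In both, the groups did not overlap and treatment lay between case and control. Apln changed by -2.30 (log2, SE 0.41, edgeR adjusted p = 0.00494) and Aplnr by -3.26 (SE 0.691, adjusted p = 0.0115) in case against control. In treatment against case they rose by 1.53 (adjusted p = 0.0325) and 2.33 (adjusted p = 0.0422), and both of these calls held in only 1 of 11 fits without a library, that without case library d (adjusted p up to 0.0828 and 0.101). Plxnd1, the semaphorin receptor of endothelium, changed by -1.24 (adjusted p = 0.00374) in case against control and by 0.78 (adjusted p = 0.0304) in treatment against case, the latter in 4 of 11 fits without a library.

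**Figure D5:**
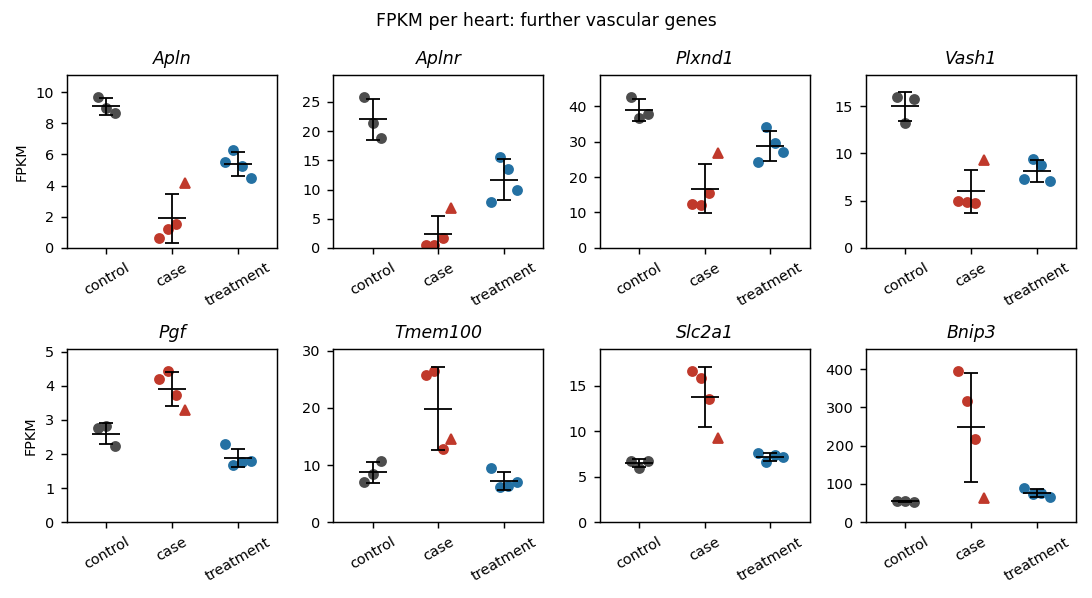
FPKM of each heart for 8 genes of neighbouring lists. Points are libraries (the triangle is case library d), bars are the mean ± SD, and the lower bar of Aplnr in case is clipped at 0. Apln lies at 8.64 to 9.68 FPKM in control, 0.640 to 4.19 in case and 4.5 to 6.29 in treatment, and Pgf is highest in case.

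Of 10 hypoxia-inducible factors and targets, 9 were tested. Of these, 4 rose and 0 fell in case against control (median 0.37), and 0 rose and 3 fell in treatment against case (median -0.24). The glucose transporter Slc2a1 was at 6.73, 6.00 and 6.78 FPKM in control, 16.6, 15.9, 13.5 and 9.26 in case, and 7.61, 6.59, 7.38 and 7.20 in treatment, without overlap of case with either group. It rose by 1.11 (log2, edgeR adjusted p = 0.00467) and fell by 0.98 (adjusted p = 0.0109). Bnip3, a mitophagy receptor, was at 53.7 to 56.6 FPKM in control, 394, 317, 216 and 64.3 in case, and 64.6 to 90.3 in treatment. It rose by 2.22 (adjusted p = 0.0111, lost without any 1 control library, up to 0.0522) and fell by 1.76 (adjusted p = 0.0251, lost without case libraries a or b or any treatment library, up to 0.0746). Egln1, the oxygen sensing hydroxylase, rose by 0.37 (adjusted p = 0.0306, lost without any 1 control library or case library b, up to 0.101) in case against control. Vegfa, itself a target of these factors, fell in case against control and rose in treatment against case. Of the 9 genes tested, 2 also had lower estimates in the former and 3 higher estimates in the latter.

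Of 10 genes of endothelial BMP signalling, 4 rose and 0 fell in case against control (median 0.62), and 0 rose and 4 fell in treatment against case (median -0.35). Tmem100, an endothelial target of this pathway, was at 7.04, 8.44 and 10.7 FPKM in control, 25.8, 26.4, 12.8 and 14.5 in case, and 9.57, 6.18, 6.25 and 6.99 in treatment. All case libraries were above all others. Tmem100 rose by 1.22 (log2, edgeR adjusted p = 0.021, lost without control libraries a or b or case library a, up to 0.0922) and fell by 1.51 (adjusted p = 0.0119). The inhibitory Smad6 rose by 0.94 (adjusted p = 0.0142, lost without any 1 control library, up to 0.064), and the receptor Bmpr2 rose by 0.40 (adjusted p = 0.017, lost without any 1 control library, up to 0.0712) and fell by 0.35 (adjusted p = 0.0288), the latter in 4 of 11 fits without a library.

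Of 9 other Notch pathway genes, Hey2 rose and Heyl fell in case against control, and Heyl rose in treatment against case (medians -0.08 and 0.14). Hey2 changed by 0.75 (log2, edgeR adjusted p = 0.0178) and Heyl by -0.56 (adjusted p = 0.00895), and these calls were lost without control library a (adjusted p up to 0.0829 for Hey2, which was also lost without control library b, and 0.0516 for Heyl). The rise of Heyl in treatment against case (0.46, adjusted p = 0.0234) held in 6 of 11 fits without a library. Of 6 endothelial activation genes, 5 were tested and 2 rose in case against control (median 0.93). The leukocyte adhesion molecule Icam1 was at 3.37, 3.03 and 3.20 FPKM in control, 6.28, 5, 6.05 and 6.96 in case, and 5.08, 4.36, 4.65 and 4.10 in treatment. It rose by 0.93 (SE 0.107, adjusted p = 0.000715) in every fit and fell by 0.44 (adjusted p = 0.0215) in treatment against case, lost without case library a or treatment libraries b or d (adjusted p up to 0.0654). P-selectin (Selp) rose by 1.42 (adjusted p = 0.0422) from as few as 14 counts in a library, in 2 of 11 fits without a library.

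Of 6 other lymphatic and venous genes, Reln and Mmrn1 rose in case against control, by 0.89 (log2, edgeR adjusted p = 0.00365) and 0.90 (adjusted p = 0.0104, lost without control library a, 0.0554). Lyve1 fell by 1.21 (adjusted p = 0.0183, lost without case library a or treatment library b, up to 0.0581) in treatment against case. Lyve1, the hyaluronan receptor of lymphatic endothelium and of resident macrophages, was at 8.54, 9.15 and 11.2 FPKM in control, 21, 15.5, 17.5 and 8.17 in case, and 8.12, 5.72, 6.31 and 7.6 in treatment. The macrophage gene Cd163 rose in case against control (1.05, adjusted p = 0.0231) and fell in treatment against case (-1.40, adjusted p = 0.00972). It was the only 1 of 6 macrophage markers to pass in either comparison, and its part in Lyve1 was not tested.

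Markers of other cells moved beside these genes. All 8 proliferation markers fell in case against control (median -2.50) and 7 of 8 fell in treatment against control, with summed levels of 11.8 to 12.5 FPKM in control, 1.47 to 2.98 in case and 2.02 to 3.56 in treatment. Of 8 pericyte and smooth muscle markers, Cspg4 (NG2) fell by 0.86 (log2, edgeR adjusted p = 0.0134) in case against control and rose by 0.63 (adjusted p = 0.0432) in treatment against case, with sums of 456 to 496, 418 to 548 and 446 to 511 FPKM in control, case and treatment. Of 6 fibroblast markers, Dcn and Pdgfra rose in case against control and Dcn fell in treatment against case, with sums of 178 to 203, 148 to 394 and 163 to 276 FPKM. Macrophage markers summed to 135 to 153, 131 to 235 and 130 to 210 FPKM. Of 5 endocardium markers, Nfatc1 rose in case against control, and Nfatc1 and Npr3 fell in treatment against case, with sums of 22.3 to 27.9, 25.2 to 29.4 and 21 to 24.3 FPKM. The part of these cells in the changes of the 46 genes was not tested.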

How the data were processed

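Hearts of 3 control, 4 case and 4 treatment mice were measured by paired-end total RNA sequencing. The deposited table gives, per gene and library, raw counts of reads by the authors, with a gene length in bases as another deposited column. FPKM were computed here from the counts per kilobase of that length and 1e6 counts of the library. The normalization factors of the edgeR tests (0.927 to 1.06 per library) were not applied to FPKM. Positions and overlaps of libraries were judged on these FPKM and can differ after such scaling. The 11 deposited columns of FPKM were not used. The submitters' notes name cutadapt, HISAT2, TopHat2 and mm10. The counting program, its annotation and its use of strand were not given in the sources used here, and 20 of the 46 genes overlap a gene on the other strand in the GENCODE annotation of GRCm38, from which gene positions are given, among them Nrp2, Prox1, Sox17, Notch4, Cav1 and Cav2. The columns name their groups by number, which a table of the study ties to case and treatment, and control is the remaining group. The letters a to d follow no label. Files of 11 further samples were not analysed here. The only line lacking a gene name (1 line) did not enter library sizes or tests.

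Counts were tested with edgeR 4.0.16 (R 4.3.3; filterByExpr, TMM, quasi-likelihood fit over all 3 groups, 14050 genes, Benjamini-Hochberg). DESeq2 1.42.0, limma 3.58.1 on log2(FPKM + 1) or log2(FPKM + 0.1), other filters, size factors and samples, and each library left out were alternatives. The fits were tested on simulated data. The study itself used limma on FPKM. The Angpt2 to Angpt1 ratio used a pseudocount of 0.1 on FPKM and exact permutations. The methods give 3, 4 and 4 mice for the groups, as many as there are libraries, whereas the labels do not name the animals. The depth of 29410822 to 34412849 counts limits the precision of low genes such as Angpt2.

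The 46 genes, their classes, and the pathway and marker lists were chosen with earlier results of these data known. In full are named the members called in any comparison (8 of the largest change in each) with the growth factors, then the 2 largest uncalled of each class, and up to 3 called genes of each pathway list. Cav1, Pecam1, Gja4, Fabp4 and other members beyond that number, and genes of the marker lists, were added after their values were seen. The lists other than the classes were VEGF ligands and antagonists, hypoxia, Notch, BMP signalling, other endothelial, endothelial activation, other lymphatic and venous, cardiomyocyte, pericyte and smooth muscle, fibroblast, macrophage, adipocyte, erythroid, platelet, endocardium and proliferation genes.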

Additional observations from a re-analysis of the deposited data

Results flagged for a closer look

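In 92 groups of a gene and 4 libraries, 4 held a library far from the other libraries of its group by Dixon's criterion, which chance gives in about 1 of 20 groups. Kdr was at 41.5 FPKM in case library d and at 22.8 to 25.9 FPKM in the other case libraries. Nrp2 was at 8.95 FPKM in case library d and at 4.33 to 4.59 FPKM in the others. Hey1 was at 4.95 FPKM in treatment library a and at 2.6 to 2.94 FPKM in the others, and Gja4 was at 7.96 FPKM in that library and at 6.61 to 6.73 FPKM in the others. The reasons were not tested.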

How the results depend on the processing

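Of the calls in case against control, Vwf, Sox7, Cav1, Cav2, Nrp2 and Vegfa held without each library and under each of 7 other settings, and in treatment against case Vegfa did. No gene reversed its direction of a call. In case against control, 9 genes passed, against 15.8% of all genes tested. Under the other settings 6 to 13 passed, against 6.20% to 19.5% of all genes. When each library was left out in turn 6 to 25 passed, against 4.95% to 32.0% of all genes. The highest count was that without case library d. In treatment against case, 14 genes passed, against 10.9% of all genes tested. When only these groups entered the fit 2 passed, against 1.97% of all genes, and 11 passed with limma, against 9.14% to 9.28%. Other size factors or filters gave 14 to 15, against 8.06% to 14.1%, and DESeq2 gave 21, against 17.6%. Leaving out each library gave 2 to 29, against 2.66% to 31.4% of all genes. The lowest count was without case library a and the highest without case library d. Without a control library there were 7 to 9, against 5.71% to 6.52% of all genes. Without a treatment library there were 4 to 5, against 2.66% to 4.28%. In treatment against control, 0 genes passed, against 1.08% of all genes tested. When only these groups entered the fit 12 passed (3 higher, 9 lower), against 5.92%, and 5 passed with DESeq2, against 2.88%. Leaving out each library gave 0 to 5, against 0.148% to 2.48% of all genes. Of 161 comparisons of a called gene with another setting, 134 kept the call, and of 253 with a library left out 145 did.

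The log2 ratio of Angpt2 to Angpt1 differed by -0.51 to 0.16 between treatment and case when each library was left out, and by 0.19 to 0.34 between treatment and control. Without case library c these were -0.51 and 0.26, and both had an exact permutation p adjusted to 0.0429. Treatment against control holds no case library, so that its difference and its unadjusted exact permutation p of 0.0286 were unchanged. Its adjusted p moved only through the adjustment over the 3 comparisons. The reason for the change in treatment against case was not tested. No paired analysis was possible because the letters of the columns could not be matched with the numbers that the labels give to replicates. Depth limits genes at few counts, such as Angpt2.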

Other observations

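Flow-responsive factors of endothelium were chosen for description after their values were seen. Klf2 was at 21.4, 15.8 and 16.3 FPKM in control, 40.8, 22.9, 32.5 and 22.6 in case, and 16.4, 16, 15.0 and 20 in treatment. Klf4 was at 18.5, 15.4 and 17.6 FPKM in control, 55.8, 35.4, 25.6 and 23.1 in case, and 19.9, 15.1, 16.6 and 14.1 in treatment. In both genes all case libraries were above all others. Klf2 rose by 0.75 (log2, edgeR adjusted p = 0.0354, held in 6 of 11 fits without a library) and Klf4 by 1.06 (adjusted p = 0.0274, 7 of 11) in case against control. They fell by 0.85 (adjusted p = 0.0245) and 1.14 (adjusted p = 0.0226) in treatment against case, each in 7 of 11 fits without a library.

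S1pr1, the endothelial receptor of sphingosine 1-phosphate, was at 51.2, 56.5 and 61.4 FPKM in control, 96.1, 86.2, 77.2 and 39.9 in case, and 42.0, 40.3, 37.6 and 33.6 in treatment. Case libraries a to c were the highest and case library d lay within the treatment range. All treatment libraries and case library d were below all control libraries. In treatment against case it fell by 1.01 (log2, edgeR adjusted p = 0.0242, held in 5 of 11 fits without a library).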
